A study of Mus musculus with 4 samples.

Results

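ETS factors are transcription factors that share a DNA-binding domain recognising sequences around the core GGAA. This report describes 10 ETS genes, Elf4, Elf1, Elf2, Spi1, Fli1, Erg, Ets1, Ets2, Gabpa and Etv6, in the spleen cells of leukaemic mice. They were taken by their symbols from a table of 24497 features, and all 10 were present in it. The family was chosen by the TPM values of Elf4, which were much lower in treated mice, so those values are given as a description with no test, and the other 9 were listed by family.

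Blood cells depend on several of these proteins. PU.1, the product of Spi1, drives the myeloid lineage, FLI1 and ERG act in stem cells and megakaryocytes, and ETS1 is prominent in lymphocytes. ELF4, also called MEF, is known in mice for its part in natural killer cell development and in the cell cycle entry of haematopoietic stem cells.

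Poly(A) RNA was sequenced from mice that carried MLL-AF9 acute myeloid leukaemia, which is driven by a fusion of the MLL and AF9 genes. Both groups were secondary recipients that had received sorted CD45.2+ primary leukaemic bone marrow cells after 320 rads. The CS1 group (2 libraries) was given CS1, which the labels call an FTO inhibitor (FTO removes methyl groups from RNA), intraperitoneally at 5 mg/kg on alternate days over 20 days, starting a week after transplantation. The PBS group (2 libraries) was given PBS. The irradiation was sub-lethal, so host blood cells could remain, and CD45.2 cells were enriched from the spleen with magnetic beads. The labels and design text give no strain, age, fusion construct or leukaemia clone and do not say whether animals were pooled, so different clones in the groups and the treatment cannot be told apart. For CS1 replicate 2 the title and description give CS1 but the treatment entry gives CS2. Calls among the ETS members that depend on it are given with and without it, but not every count over a gene list is. The labels do not say that replicates came from separate animals, and the p-values therefore rest on a spread between libraries that may be technical.

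Values are TPM, a length-normalised transcript share of each library, so levels of different genes can be compared. The read depth behind them is unknown. The column sums ran from 977973 to 986345. Myeloid identity was present in all libraries: all 10 fixed markers of myeloid leukaemia cells, among them Ptprc, Itgam, Mpo and Hoxa9, passed the filter, and they summed to 7249 and 7346 TPM in CS1 and to 5830 and 5843 TPM in PBS. Of these markers 4 rose, 5 fell (among them Ptprc, Itgam and Csf1r) and 1 did not pass, and without Elane, which rose, the sums were 4759 and 4813 TPM in CS1 and 5407 and 5416 TPM in PBS. Markers of other cells were low. The 9 T cell markers summed to 27.9 and 29.0 TPM in CS1 and to 40.5 and 37.3 TPM in PBS, and 8 B cell markers to 40.0 and 35.2 TPM in CS1 and to 59.4 and 57.7 TPM in PBS. The 6 natural killer cell markers summed to 46.1 and 52.2 TPM in CS1 and to 20.0 and 17.3 TPM in PBS, mostly from Nkg7. Of the 3 that passed the filter, Nkg7 and Klrk1 rose and Gzma fell. The defining receptor gene Ncr1 was listed at 0.01 in both CS1 libraries and at 0.43 and 0.44 TPM in PBS. Klrb1c and Eomes, also under the filter, were lower in both CS1 libraries than in both PBS libraries.

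The sequences before the start sites are shown for 3 of the members because ETS genes are themselves candidates for binding by ETS factors. The stretches are the 250 bases before the outermost start site in the RefSeq promoter table (GRCm38.p6, the assembly of mm10), read 5′ to 3′ in the direction of the gene. Capitals mark every GGAA and, as the same core on the other strand, every TTCC. Elf4 is shown as the gene that led to the family, Elf1 as its close relative, and Gabpa because it alone among the members with an entry held the longer form CCGGAAG or, on the other strand, CTTCCGG. The Elf4 stretch is chrX:48463133-48463382 on the minus strand and the Elf1 stretch is chr14:79480944-79481193 on the plus strand. The Gabpa stretch is chr16:84834874-84835123 on the plus strand. In the GENCODE annotation, used below for gene coordinates, Gabpa starts at chr16:84834925. Most of its stretch, with every marked core and the longer form, thus lies within the gene as annotated there.
Elf4: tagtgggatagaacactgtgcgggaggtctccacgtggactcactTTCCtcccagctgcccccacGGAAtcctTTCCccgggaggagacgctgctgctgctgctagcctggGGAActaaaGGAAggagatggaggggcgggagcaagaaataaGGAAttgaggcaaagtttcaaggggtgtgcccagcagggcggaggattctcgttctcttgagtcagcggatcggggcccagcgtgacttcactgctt
Elf1: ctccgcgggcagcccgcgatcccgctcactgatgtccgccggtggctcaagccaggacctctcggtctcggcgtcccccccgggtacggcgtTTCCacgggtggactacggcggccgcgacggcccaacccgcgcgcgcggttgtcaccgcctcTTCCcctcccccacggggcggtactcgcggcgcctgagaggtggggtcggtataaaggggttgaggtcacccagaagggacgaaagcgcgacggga
Gabpa: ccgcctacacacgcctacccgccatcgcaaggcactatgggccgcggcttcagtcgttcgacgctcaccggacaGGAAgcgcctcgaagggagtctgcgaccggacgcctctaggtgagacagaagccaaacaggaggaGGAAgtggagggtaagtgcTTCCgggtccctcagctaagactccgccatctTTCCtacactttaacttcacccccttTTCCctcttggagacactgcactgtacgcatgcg

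The Elf4 stretch held 6 cores, and 8.69% of all 32851 stretches of this length held at least as many. The Elf1 stretch held 2 and the Gabpa stretch 5, numbers reached by 76.8% and 18.0% of all stretches. Some members have further start sites, whose stretches are not shown. The second Elf4 stretch (chrX:48454320-48454569) held only 2 cores and the second Elf1 stretch 0. For Elf2 the 2 stretches held 1 and 6 cores. At least 1 core was present in 93.5% of all stretches, and the longer form, which contains the core, in 6.91%. Of the 10 members, 7 had an entry in the table. These matches describe the letters in the stretches and are not evidence of binding.

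Among the ELF genes, Elf4 was far lower in CS1 though still detected, while its relatives differed little. Elf4 (chrX:48411046-48463132, minus strand) had 8.78 and 8.97 TPM in CS1, against 168 and 163 TPM in PBS. Both CS1 libraries therefore lay far below both PBS libraries, and the mean was 18.6-fold lower in CS1 (log2 fold change -4.07 on log2(TPM + 1), the scale of all log2 fold changes here). In bulk RNA, fewer cells that express a gene and less RNA per cell cannot be told apart. Natural killer and T cells also use Elf4, and the part of their markers, given above, in its difference was not tested.

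Elf1 (chr14:79481194-79582494, plus strand), which encodes a factor active across blood lineages, had 123 and 120 TPM in CS1 and 109 and 110 TPM in PBS. The groups did not overlap, and Elf1 rose by 11.3% (log2 fold change 0.15 ± 0.03, SE, limma adjusted p = 0.00414). Its exons share 327 bases with those of Wbp4 on the opposite strand, which had a log2 fold change of 0.38, and the labels do not say whether reads were counted by strand. Elf2 (chr3:51252720-51340663, minus strand), the third member of this subfamily, had 34.9 and 32.8 TPM in CS1 and 40.4 and 37.8 TPM in PBS. It fell by 0.20 ± 0.05 (log2, SE, limma adjusted p = 0.0188), with no overlap between the groups. That call was lost without PBS replicate 1 (adjusted p = 0.101) and without CS1 replicate 2 (adjusted p = 0.103), within a range of 0.00956 to 0.103 over 12 alternatives. Elf2 shares 371 exon bases with 4930577N17Rik on the opposite strand, which also fell (log2 fold change -0.56, limma adjusted p = 0.006). The part of shared reads in the Elf2 result was not tested.

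The balance within the subfamily differed accordingly. In CS1 the Elf4 level was 0.0712 and 0.0745 of the Elf1 level, against 1.55 and 1.47 of it in PBS. Relative to Elf2 it was 0.252 and 0.274 in CS1 and 4.16 and 4.31 in PBS. Elf4 exceeded both relatives in each PBS library and lay below both in each CS1 library.

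**Figure D1:**
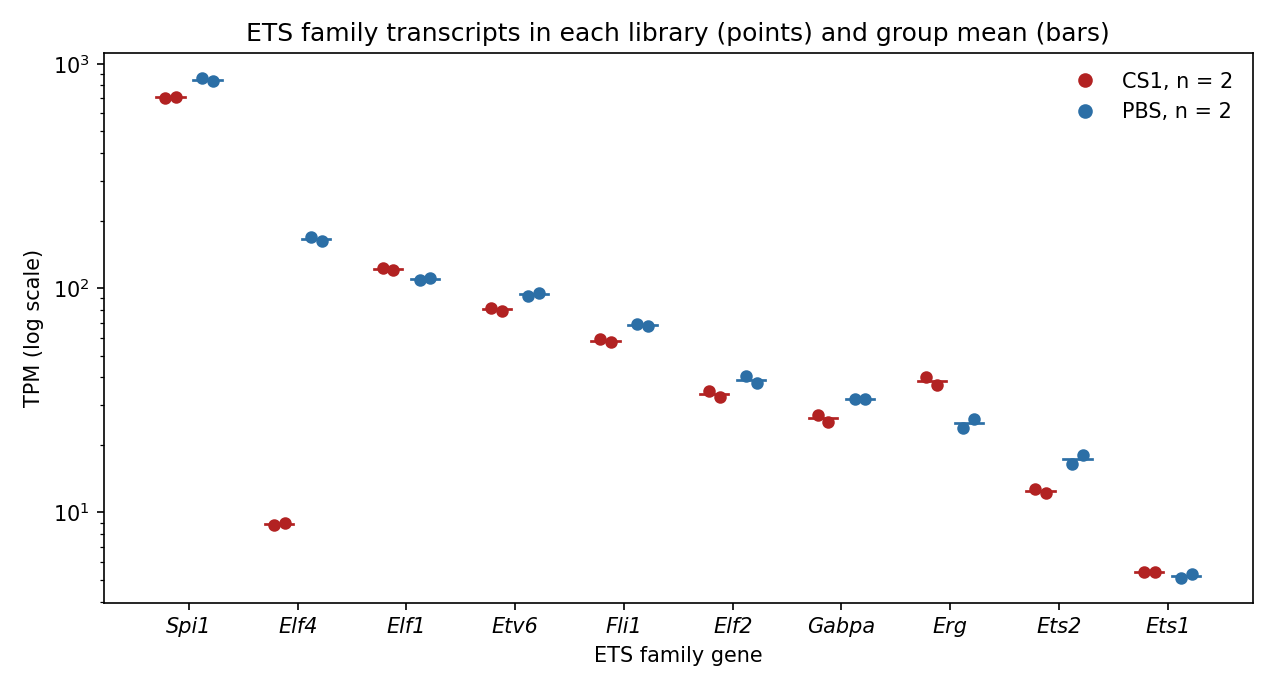
TPM (log axis) of the 10 ETS genes in each library, with CS1 (red, n = 2) left of PBS (blue, n = 2) and a bar at each group mean. Elf4 is at 8.78 and 8.97 TPM in CS1 and at 168 and 163 TPM in PBS, while for each of the other genes the groups lie close together on this axis, with the widest gap for Erg (40.0 and 37.0 TPM in CS1, 23.9 and 26.1 TPM in PBS).

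Spi1 was the most abundant of the 10 genes in every library. This gene (chr2:91082390-91115756, plus strand) had 705 and 710 TPM in CS1 and 864 and 834 TPM in PBS. Both CS1 libraries were below both PBS libraries, and Spi1 fell by 16.7% (log2 fold change -0.26 ± 0.02, SE, limma adjusted p = 0.000239). Its level still exceeded that of 98.3% of the tested features in CS1 replicate 1.

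Fli1 and Erg encode closely related factors, and they moved in opposite directions. Erg (chr16:95359169-95586593, minus strand), a regulator of haematopoietic stem cells, had 40.0 and 37.0 TPM in CS1 and 23.9 and 26.1 TPM in PBS. It rose 1.54-fold (log2 fold change 0.60 ± 0.07, SE, limma adjusted p = 0.000484), with every CS1 value above every PBS value. Fli1 (chr9:32422204-32542861, minus strand), best known from megakaryocytes and from stem cells, had 59.1 and 57.4 TPM in CS1 and 69.2 and 67.7 TPM in PBS. Fli1 fell by 14.9% (log2 fold change -0.23 ± 0.03, SE, limma adjusted p = 0.00189). The Erg level was thus 0.677 and 0.644 of the Fli1 level in CS1, against 0.345 and 0.386 of it in PBS.

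Endothelium and megakaryocytes also express Erg and Fli1. The 6 endothelial markers summed to 43.4 and 41.1 TPM in CS1 and to 49.4 and 47.9 TPM in PBS, most of it Pecam1, which leukocytes also express, and Tek and Emcn were listed at 0.01 in all libraries. Of the endothelial markers only Pecam1 and Vwf passed the filter. Vwf rose with Erg, to 5.55 and 5.35 TPM in CS1, against 4.05 and 4.25 TPM in PBS (log2 fold change 0.32, limma adjusted p = 0.0261). Pecam1 fell, to 37.8 and 35.7 TPM in CS1, against 45.1 and 43.4 TPM in PBS (log2 fold change -0.26, limma adjusted p = 0.00388). Cdh5, under the filter, had 0.01 and 0.04 TPM in CS1 and 0.28 and 0.20 TPM in PBS. The part of these markers in the Erg result was not tested. The 6 megakaryocyte markers summed to 3.17 and 1.43 TPM in CS1 and to 1.80 and 1.45 TPM in PBS, with Pf4, Ppbp and Gp6 listed at 0.01 throughout.

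Of the founding ETS pair, Ets2 fell and Ets1 did not pass the test. Ets2 (chr16:95702075-95721051, plus strand), whose protein is activated by RAS and MAP kinase signalling, had 12.7 and 12.2 TPM in CS1 and 16.4 and 18.1 TPM in PBS, without overlap. It fell by 27.6% (log2 fold change -0.44 ± 0.07, SE, limma adjusted p = 0.00321). Ets1 (chr9:32636221-32757820, plus strand) was the least abundant member in both groups, with 5.45 and 5.43 TPM in CS1 and 5.12 and 5.32 TPM in PBS. Its log2 fold change was 0.05 with a 95% interval of -0.18 to 0.28 (limma adjusted p = 0.648), and after quantile normalization its sign turned (log2 fold change -0.16, adjusted p = 0.153, within a range of 0.153 to 0.855 over 12 alternatives).

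Gabpa and Etv6 were both modestly lower in CS1. Gabpa (chr16:84834925-84863779, plus strand) encodes the DNA-binding subunit of GABP, a factor that controls many mitochondrial and housekeeping genes. It had 27.1 and 25.4 TPM in CS1 and 31.9 and 32.1 TPM in PBS, and fell by 0.28 ± 0.05 (log2, SE, limma adjusted p = 0.00401). Its exons share 397 bases with Atp5j on the opposite strand, which had a log2 fold change of 0.17. GABP also needs a beta subunit: Gabpb2 fell to 63.4 and 59.2 TPM in CS1, against 73.5 and 73.2 TPM in PBS (log2 fold change -0.26, limma adjusted p = 0.0027). Gabpb1 had 26.9 and 26.6 TPM in CS1 and 22.5 and 24.6 TPM in PBS (log2 fold change 0.18, limma adjusted p = 0.04), a call that was lost in 8 of 12 alternatives, among them those without PBS replicate 1, CS1 replicate 1 or CS1 replicate 2 (adjusted p = 0.163, 0.145 and 0.125, range 0.0294 to 0.163). Etv6 (chr6:134035700-134270158, plus strand), which encodes a repressor required for bone marrow haematopoiesis in mice, had 81.6 and 79.2 TPM in CS1 and 92.3 and 95.4 TPM in PBS. It fell by 14.3% (log2 fold change -0.22 ± 0.03, SE, limma adjusted p = 0.00195), with both CS1 values below both PBS values.

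Of the 9 members other than Elf4, 2 rose, 6 fell and 1 did not pass the test, all 9 had groups that did not overlap, and 8 changed by less than 0.5 on the log2 scale. Over all 11866 tested features, 67.0% were called by limma at an adjusted p under 0.05, 35.3% higher and 31.6% lower in CS1, and the groups did not overlap for 84.4%. Since the family was chosen through Elf4 in this same contrast, nothing is read from the members' counts beside these shares. The median log2 fold change was -0.22 over the 9 members and 0.04 over all tested features.

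**Figure D2:**
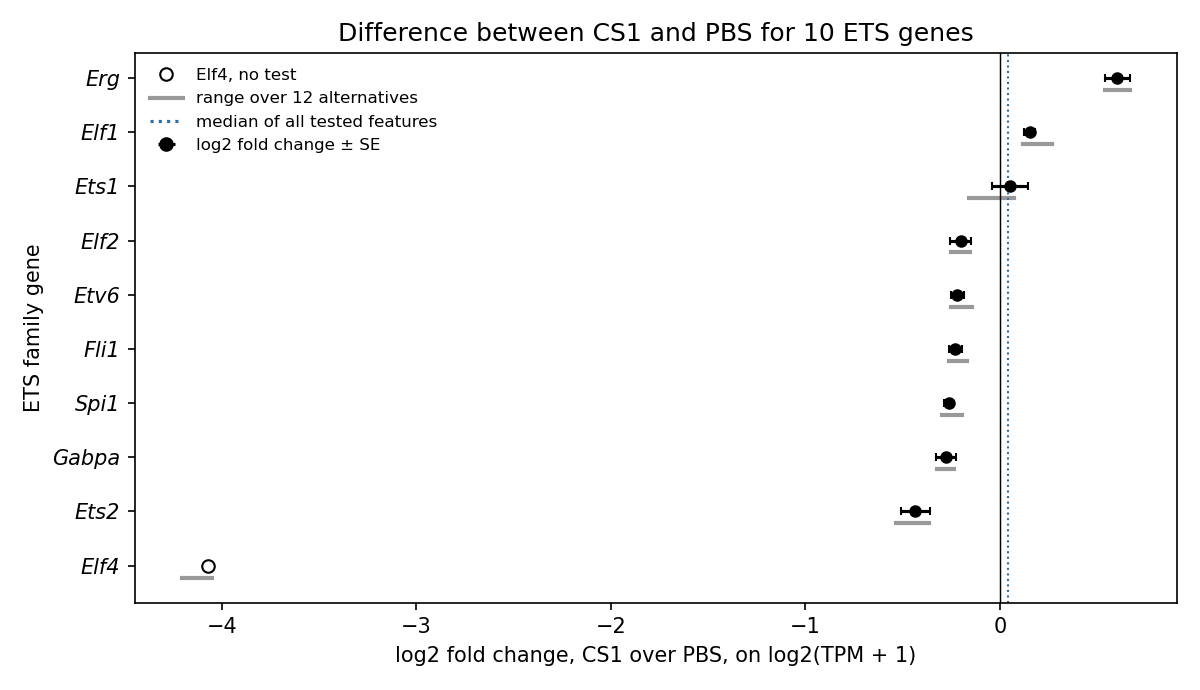
Log2 fold change of CS1 over PBS on log2(TPM + 1) for the 10 ETS genes, with SE bars (Elf4, open point, without a test), grey lines for the range over 12 processing alternatives and a dotted line at the median of all tested features. Erg (0.60) and Elf1 (0.15) lie right of 0 over their whole range, the line of Ets1 crosses 0, and Elf4 lies at -4.07, far from all others.

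By level, the order in CS1 ran Spi1, Elf1, Etv6, Fli1, Erg, Elf2, Gabpa, Ets2, Elf4 and Ets1. In PBS it ran Spi1, Elf4, Elf1, Etv6, Fli1, Elf2, Gabpa, Erg, Ets2 and Ets1. Neighbours in either order had ranges over the 2 libraries that did not overlap. Elf4 was thus at rank 9 in CS1 and at rank 2 in PBS, while Erg was at rank 5 in CS1 and at rank 8 in PBS.

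The 10 genes together summed to 1098 and 1088 TPM in CS1 and to 1420 and 1389 TPM in PBS. Elf4 made up 0.80% and 0.82% of the sum in CS1, against 11.8% and 11.7% in PBS. Elf4 accounted for 50.2% of the difference between the group means of the sum and Spi1 for 45.5%. Without those genes the sums were 384 and 370 TPM in CS1 and 388 and 393 TPM in PBS, so the 8 remaining genes, some higher and some lower, gave nearly equal totals. Spi1 took 64.2% and 65.2% of the sum in CS1 and 60.8% and 60.0% in PBS.

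**Figure D3:**
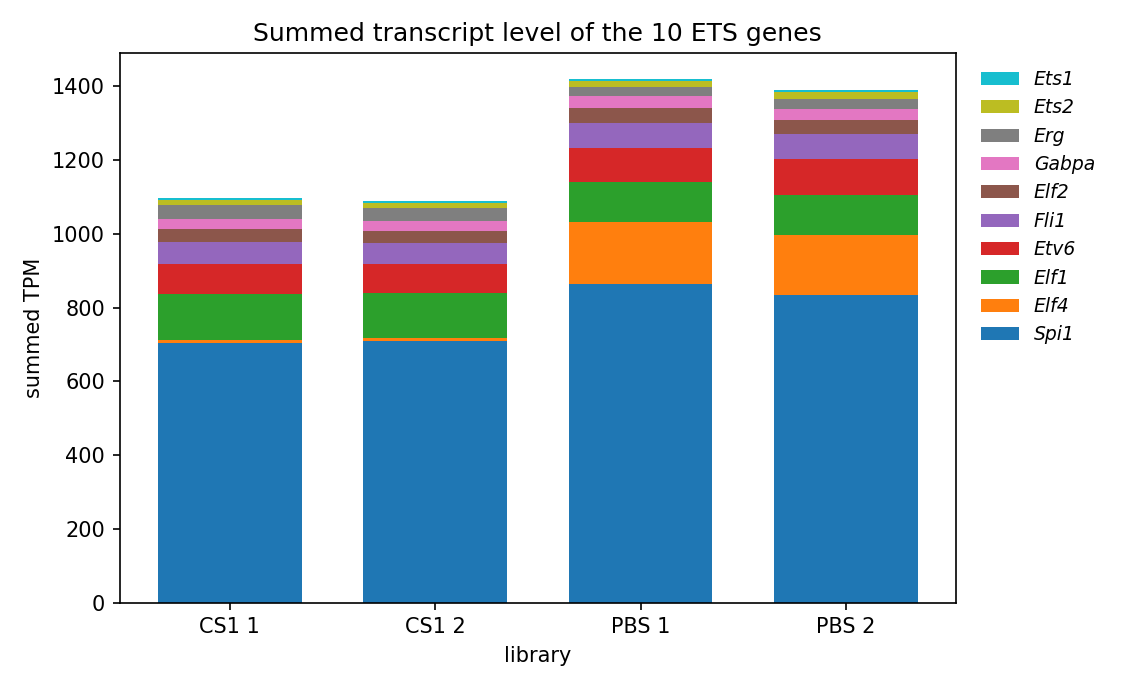
Summed TPM of the 10 ETS genes in each library, stacked by gene, with the CS1 libraries left of the PBS libraries. The Elf4 segment is 0.80% and 0.82% of the CS1 bars and 11.8% and 11.7% of the PBS bars, and Spi1 is the largest segment of each.

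The family has further genes, and 16 of them were looked up. Of these, 7 passed the filter of at least 1 TPM in at least 2 libraries, and the 9 others had at most 0.33 TPM in any library. Among the 7, 3 fell, 1 rose and 3 did not pass, with a median log2 fold change of -0.17. Of all tested features 31.6% fell and 35.3% rose. Elk3, a ternary complex factor that works with SRF, had 33.8 and 32.5 TPM in CS1 and 50.6 and 52.9 TPM in PBS (log2 fold change -0.63, limma adjusted p = 9.10e-05). Erf, an ETS repressor under MAP kinase control, rose to 9.50 and 9.67 TPM in CS1, against 6.94 and 6.36 TPM in PBS (log2 fold change 0.47, limma adjusted p = 0.00389). The repressor gene Etv3 had a log2 fold change of -0.18 (limma adjusted p = 0.0294, range 0.0109 to 0.129 over 12 alternatives), and its call was lost whenever a library was left out. The count of genes that fell was 1 without PBS replicate 1, without CS1 replicate 1 or without CS1 replicate 2, and 5 after quantile normalization, and 2 rose when no filter was applied.

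Of 18 genes for proteins that bind DNA or act together with ETS factors, 16 were tested, of which 6 rose and 8 fell (median log2 fold change -0.09), where 67.0% of all tested features were called. Lmo2, a bridging protein of stem cell transcription complexes, rose to 402 and 397 TPM in CS1, against 270 and 275 TPM in PBS (log2 fold change 0.55, limma adjusted p = 1.38e-05). Irf4, an interferon regulatory factor that binds composite sites with PU.1, had a log2 fold change of 0.48. Cebpb, a myeloid bZIP factor, fell to 609 and 581 TPM in CS1, against 944 and 906 TPM in PBS (log2 fold change -0.63, limma adjusted p = 2.94e-05), and the acetyltransferase gene Ep300 had one of -0.56.

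Reported target genes were counted without regard to what controls them here. The lists were drawn up with earlier results of these data known, so nothing is read from their counts beside the shares over all tested features. Of 16 PU.1 targets, 15 were tested, of which 11 fell and 1 rose, where 31.6% of all tested features fell and 35.3% rose (median log2 fold change of the targets -0.44). Itgam, Csf1r and Cd14 in this list are also among the myeloid markers above. After quantile normalization, or with the variance trend off, 12 fell and 2 rose, and 12 fell when no filter was applied. Cd68, a macrophage lysosomal glycoprotein, fell to 333 and 324 TPM in CS1, against 645 and 650 TPM in PBS (log2 fold change -0.98, limma adjusted p = 3.32e-06), and Lyz2 had a log2 fold change of -1.09. Ncf1, a subunit of the phagocyte oxidase, rose to 403 and 392 TPM in CS1, against 318 and 323 TPM in PBS (log2 fold change 0.31, limma adjusted p = 0.00013).

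Of 11 genes reported as ELF4 targets, 6 were tested, of which 2 rose, 3 fell and 1 did not pass (median log2 fold change -0.45). The shares over all tested features were 35.3% higher and 31.6% lower. The list does not separate genes by the direction in which ELF4 is reported to act on them. Lyz2, among the 3 that fell, was also counted with the PU.1 targets. Trem1, another of the 3, had 73.4 and 76.5 TPM in CS1 and 130 and 136 TPM in PBS (log2 fold change -0.82, limma adjusted p = 1.97e-05). Klf2 and Klf4, which restrain proliferation and are reported to be activated by ELF4 in mouse CD8 T cells, both rose. Klf2 had 577 and 578 TPM in CS1 and 361 and 352 TPM in PBS (log2 fold change 0.70, limma adjusted p = 6.37e-06). Klf4 had 272 and 266 TPM in CS1 and 208 and 210 TPM in PBS (log2 fold change 0.36, limma adjusted p = 6.70e-05). Whether Elf4 acts on either gene in these cells was not tested. Il1rn, which encodes the interleukin-1 receptor antagonist, fell to 4.07 and 3.91 TPM in CS1, against 9.08 and 8.74 TPM in PBS (log2 fold change -0.99, limma adjusted p = 0.000232). Mdm2, the p53 ubiquitin ligase, did not pass (log2 fold change -0.07, limma adjusted p = 0.0815), though it fell after median-of-ratios rescaling (log2 fold change -0.10, adjusted p = 0.0201) and its sign turned after quantile normalization (adjusted p = 0.762), the ends of its range over 12 alternatives, and Prf1, the perforin of cytotoxic cells, stayed at or under 0.44 TPM in every library.

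Of 8 GABP targets, all tested, 2 rose, 1 fell and 5 did not pass (median log2 fold change 0.08). Among all tested features 35.3% rose and 31.6% fell. After quantile normalization 3 of the GABP targets rose and 2 fell, and with the variance trend off 3 rose. Cox4i1, a subunit of the respiratory chain, rose to 759 and 770 TPM in CS1, against 654 and 642 TPM in PBS (log2 fold change 0.24, limma adjusted p = 0.000205). Itgb2, the leukocyte integrin beta chain, fell to 610 and 607 TPM in CS1, against 1141 and 1144 TPM in PBS (log2 fold change -0.91, limma adjusted p = 2.60e-06). Elane, the neutrophil elastase gene, had a log2 fold change of 2.56. Of 10 targets of the ternary complex factors, to which Elk3 belongs, 9 were tested, of which 4 rose and 3 fell (median log2 fold change 0.17). For these too the shares over all tested features were 35.3% higher and 31.6% lower. Fos and Srf were also counted as partners and Egr2 as a PU.1 target. Ier2, an immediate early gene, rose to 543 and 526 TPM in CS1, against 368 and 376 TPM in PBS, while Dusp6, a phosphatase that restrains ERK, fell to 51.7 TPM in both CS1 libraries, against 102 and 99.8 TPM in PBS (log2 fold changes 0.52 and -0.95). Fosb and Srf had log2 fold changes of 1.14 and -0.28.

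**Figure D4:**
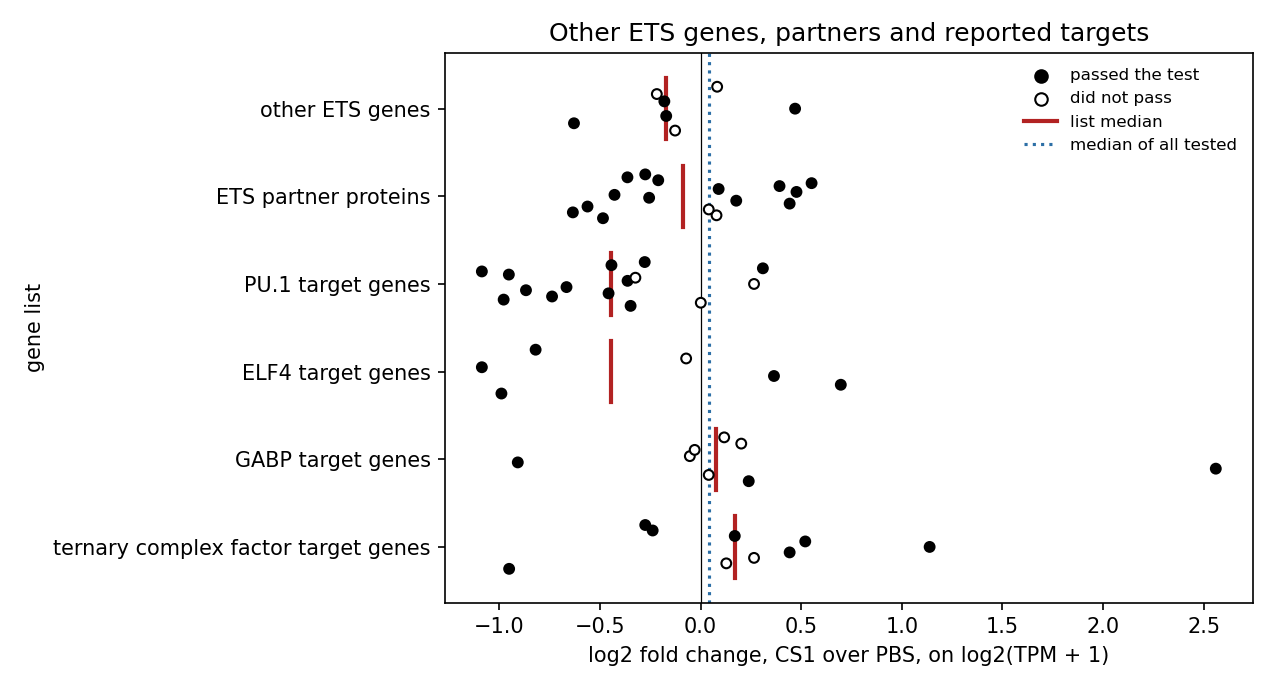
Log2 fold change of CS1 over PBS on log2(TPM + 1) for the tested genes of 6 lists, filled where the gene passed the limma test, with a red bar at each list's median and a dotted line at the median of all tested features. The PU.1 targets lie mostly left of 0 (11 fell, 1 rose), while the partners (6 rose, 8 fell) and the ternary complex factor targets (4 rose, 3 fell) spread to both sides. All tested features were 35.3% higher and 31.6% lower, and the lists were drawn up with earlier results of these data known.

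Several ETS genes lie next to each other in the genome. Fli1 and Ets1 lie beside each other among the tested protein-coding genes on chromosome 9, 93 kb apart, and Erg and Ets2 on chromosome 16, 115 kb apart. Within the second pair the directions were opposite, with a log2 fold change of 0.60 for Erg and -0.44 for Ets2.

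Flanking genes were taken as the nearest tested protein-coding genes that do not overlap a member, which leaves out Wbp4 (overlapping Elf1) and Atp5j (overlapping Gabpa), both of which rose. On either side of Elf4, both flanking genes were also lower in CS1. Bcorl1 (chrX:48341358-48408049, plus strand), a corepressor gene 3.0 kb away, had 0.76 and 0.84 TPM in CS1 and 5.33 and 5.29 TPM in PBS. Aifm1 (chrX:48474944-48513563, minus strand), a mitochondrial flavoprotein gene 12 kb away, had 10.3 and 8.66 TPM in CS1 and 29.7 and 29.4 TPM in PBS. Their log2 fold changes were -1.81 and -1.54, against -4.07 for Elf4. Bcorl1 was under 1 TPM in both CS1 libraries and so passed the filter only through PBS. Its value depended on the pseudocount, with a log2 fold change of -2.59 at 0.1 and -2.16 at 0.5. Beyond Aifm1, Rab33a had 34.5 and 36.9 TPM in CS1 and 0.44 and 0.56 TPM in PBS. Further out past Rab33a, Zfp280c and Rbmx2 rose (log2 fold changes 0.41 and 0.78) and Slc25a14 did not pass (0.16). Past Bcorl1 on the other side, Utp14a, Zdhhc9 and Sash3 fell (log2 fold changes -0.21, -0.69 and -0.60). Around the 9 other members, the 14 flanking genes that are not ETS genes had log2 fold changes from -0.82 (App, beside Gabpa) to 0.72 (Kbtbd6, beside Elf1). Of these 14, 6 rose, 3 fell and 5 did not pass, where 35.3% of all tested features rose and 31.6% fell. Next to Spi1, which fell, Mybpc3 rose (log2 fold change 0.59, limma adjusted p = 0.00308).

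**Figure D5:**
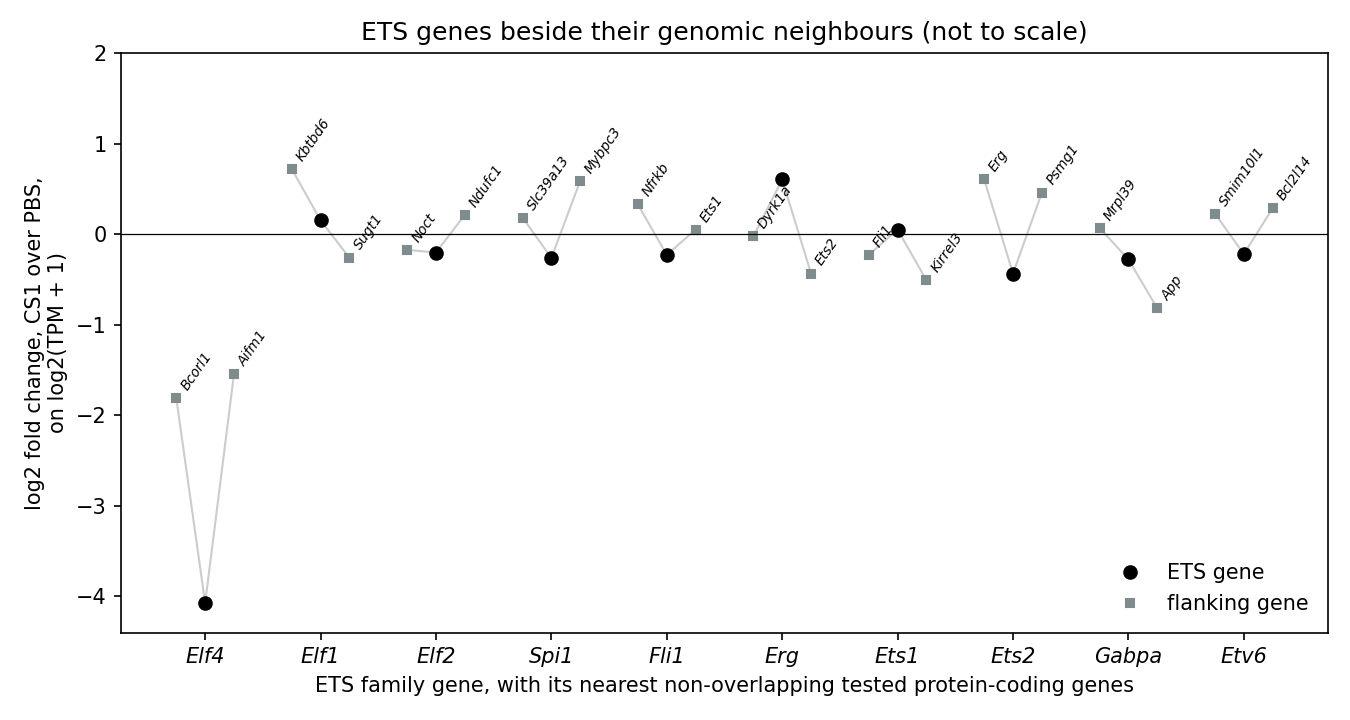
Log2 fold change of CS1 over PBS on log2(TPM + 1) for each ETS gene (black circles) and the nearest tested protein-coding gene that does not overlap it at lower (left) and higher (right) coordinates (grey squares). Elf4 (-4.07) and both its flanking genes (-1.81 and -1.54) are below every other point in the plot. Bcorl1 (-1.81) passed the filter only through PBS.

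Profiles were compared by Euclidean distance between log2(TPM + 1) values centred over the 4 libraries. The nearest to Elf4 were those of Saa3 (0.65), Cd300ld3 (0.95) and Cd300c2 (0.96), out of 10982 features considered. Tested features left out were predicted symbols (Gm numbers and Rik), small RNA genes and features listed at 0.01 in both libraries of a group. Saa3, an acute-phase gene, had 10.2 and 13.6 TPM in CS1 and 143 and 139 TPM in PBS. Among the ETS members, the nearest to Elf4 was Ets2, at a distance of 3.64, whereas Spi1 and Fli1 were 0.05 apart. With 4 libraries in 2 groups, this distance mostly reflects the size of the difference between the groups.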

How the data were processed

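Poly(A) RNA was measured in 2 CS1 and 2 PBS libraries, grouped by sample title. Per the submitters' processing notes, STAR, RSEM and mm10 were used; no version, role or annotation is stated there. The deposited values were taken as TPM made by the authors, inferred from decimals and from column sums between 977973 and 986345, since no header or label states the unit. The lowest listed value, 0.01, stands where 0 would be expected. TPM keeps no read depth, so no counting interval is given.

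Values were transformed to log2(TPM + 1). The 11866 features that reached 1 TPM in 2 or more of 4 libraries were tested for CS1 against PBS with limma 3.58.1 (R 4.3.3), variance trend on, two-sided, Benjamini-Hochberg adjusted over all of them, with calls at an adjusted p under 0.05; the step was tested on simulated data. The design allowed for either counts or normalized values, and the values called for limma. An exact permutation test of 2 against 2 libraries cannot give a two-sided p under 0.333. The members and all gene lists were chosen with earlier results of these data known. Named genes outside the members are, in each direction of a list, up to 2 called genes with the largest change. Others are GABP beta subunits, selected ELF4 targets, nearest tested protein-coding neighbours and the profiles nearest to Elf4. Rab33a, the further genes around Elf4 and genes sharing exon bases were named for position after their values were seen. Coordinates are from GENCODE M21 (GRCm38).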

Additional observations from a re-analysis of the deposited data

How the results depend on the processing

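The counts among the 9 members (2 higher, 6 lower) were the same under another pseudocount (0.1 or 0.5), no filter, a filter of 5 TPM, both rescalings and the variance trend off, and 5 were lower without PBS replicate 1 or CS1 replicate 2. Calls over all features were 3890 higher and 4027 lower after median-of-ratios rescaling, and 3429 to 3617 higher and 3191 to 3333 lower when a library was left out, where a lone library is assumed to vary like the others. The Elf4 share in CS1 was 0.751% after quantile normalization, and the log2 fold change of Elf4 ranged from -4.21 to -4.05. Of the 43 named genes outside the members that were followed, 33 kept direction and call under every alternative that tested them. Kbtbd6 was not tested at the filter of 5 TPM. Trem1, genes sharing exon bases and the further genes around Elf4 past Rab33a and Bcorl1 were not among those followed. Signs turned after quantile normalization for Ets1 (-0.16), Mdm2 (0.011) and Dyrk1a (0.0056) and when a library was left out for Mrpl39 (-0.019 to 0.16) and Smim10l1 (-0.19 to 0.64); the cause was not tested.

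With the replicate block, 4110 features were higher and 3640 lower, and 2 and 6 of the 9 members. Same-numbered libraries did not deviate together (r = 0.022 across features), and the main fit did not pair them. With 2 libraries per group, this r cannot show whether same-numbered libraries share more than a number. TPM without read depth limits what can be said of low genes such as Ets1.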
